A study of Mus musculus with 14 samples.

Results

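The lysyl oxidase family has 5 members in the mouse, Lox and Loxl1 to Loxl4, and all 5 were found by gene symbol among the 24346 genes of the count table and the 24340 genes of the RPKM table. RPKM are read counts scaled by transcript length and library size. The levels come from 14 libraries of polyadenylated RNA from MC3T3-E1, a mouse line of osteoblast precursors grown in culture. The labels give the genotype of 7 libraries as control (NC in the titles) and of the other 7 as MACF1 knockdown (sh in the titles). Each condition was sampled at days 0, 3 and 5 with 2 libraries and at day 10 with 1 library. All groups share the 1 cell line. The labels state neither the event from which the days are counted nor how the knockdown was made. The design text calls the duplicates biological without saying whether separate cultures gave them, and a p-value here measures a spread between libraries that may be technical.

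Lysyl oxidases are secreted enzymes that need copper. They oxidise lysine and hydroxylysine side chains of collagens and elastin to aldehydes, which then react with neighbouring chains to form the cross-links that stiffen the matrix. In bone, these cross-links set the strength of the collagen fibrils that osteoblasts lay down before mineral is added. Lox and Loxl1 carry a propeptide, whereas Loxl2, Loxl3 and Loxl4 carry scavenger receptor cysteine-rich domains in front of the same catalytic part.

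The catalytic part shows how the members are related. In the GENCODE release M21 annotation of GRCm38, the longest coding sequences encode 411 residues for Lox, 607 for Loxl1, 776 for Loxl2, 754 for Loxl3 and 758 for Loxl4. In the C-terminal part that holds the copper site, Lox and Loxl1 were identical at 75.1% of aligned residues. Loxl2, Loxl3 and Loxl4 were identical to each other at 66.8% to 69.1%. Between these groups, identity was 47.8% to 52.7%. The 60 coding bases around the copper-binding histidines are shown for Loxl1 to Loxl4, because this stretch holds the copper site. The Lox stretch is not printed here. The printed bases run 5′ to 3′ on the coding strand. Capitals mark the 4 histidine codons of the pattern used to find the stretch, and a further histidine codon near the 5′ end is in lower case. Which of these histidines bind copper was not tested. Each stretch crosses an exon junction, so that its genome interval includes an intron. The intervals are chr9:58293702-58294390 on the minus strand for Loxl1, chr14:69682307-69689055 on the plus strand for Loxl2, chr6:83049986-83050143 on the plus strand for Loxl3 and chr19:42598789-42599908 on the minus strand for Loxl4.
Loxl1: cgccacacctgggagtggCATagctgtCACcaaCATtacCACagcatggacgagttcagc
Loxl2: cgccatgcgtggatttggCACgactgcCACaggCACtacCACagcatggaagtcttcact
Loxl3: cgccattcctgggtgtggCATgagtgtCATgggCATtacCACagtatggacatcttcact
Loxl4: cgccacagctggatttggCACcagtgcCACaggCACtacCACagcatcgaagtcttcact
Each stretch was found by a protein pattern that requires these 4 histidines, a cysteine, and a tyrosine between the last 2 histidines. Their presence in each stretch was thus fixed by the search. The tyrosine codon is tac in all 4 members, and other bases between the histidine codons differ between some members.

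The libraries held 8044687 to 23301514 counted reads. The smallest was control day 3 replicate 2, and every other library held at least 12590033. The same library stood apart from its partner: log2 levels correlated at r = 0.924 within the control pair of day 3 and at 0.987 to 0.989 within the other pairs. Results are therefore given from all 14 libraries and, where the call or direction differs, from a reduced fit. The reduced fit leaves out control day 3 replicate 2, so that control day 3 has 1 library, assumed to vary like the other groups. Macf1, the targeted gene, was at 154 to 205 CPM (counts relative to library size, per the scaling of the fit) in control libraries other than control day 3 replicate 2, where it was at 55.2, and at 129 to 181 CPM in those labelled knockdown. Its difference averaged over days 0, 3 and 5 was 0.13 on the log2 scale (SE 0.24, adjusted p = 0.724, edgeR), and −0.08 in the reduced fit (adjusted p = 0.277). No fall of Macf1 mRNA passed the test in either setting, so that the labels are not checked by it, and the second condition is called "labelled knockdown" throughout. The 8 osteoblast markers were all detected, Bglap not in every library, and summed to 10925 to 27406 CPM for control and 12140 to 20290 CPM for labelled knockdown. The sum is mostly Col1a1, Col1a2 and Spp1, and single markers differed: at day 5, Ibsp was at 8293 and 7421 CPM in control against 405 and 359, Alpl at 154 and 153 against 46.3 and 42.3, and Bglap at 1.21 and 1.27 against 9.27 and 9.66. All 4 macrophage markers were under 1 CPM in every library (Ptprc, Cd68, Adgre1 and Csf1r), as were 3 of 4 endothelial markers (Cdh5, Kdr and Tek). The 4 smooth muscle and myofibroblast markers, of which Acta2 and Tagln are also expressed by cultured stromal cells, summed to 298 to 1195 CPM for control and 396 to 1651 CPM for labelled knockdown. The 5 chondrocyte markers summed to 149 to 365 and 210 to 350 CPM. The 4 adipocyte markers found summed to 5.47 to 10.1 CPM in control and 1.95 to 5.19 in labelled knockdown, mostly Cebpa, with Adipoq and Fabp4 under 1 CPM in every library. The 2 skeletal muscle markers found summed to 1.04 to 3.6 and 4.26 to 11.0 CPM, nearly all Des, with Myog under 1 CPM throughout. These last 2 lists do not overlap between the conditions, and the part of any of these lists in the results was not tested.

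Per unit of transcript length, Lox was the most abundant member in all 14 libraries, and the order Lox > Loxl3 > Loxl4 > Loxl1 > Loxl2 held in 12 of them. The exceptions were control day 3 replicate 2 and control day 10, where Loxl1 stood above Loxl4. Neighbours in the order overlapped in their library values only at control day 3, where Lox was at 42.84 and 11.51 RPKM against 15.38 and 10.4 for Loxl3, and Loxl4 at 8.63 and 3.99 against 5.3 and 4.34 for Loxl1. Lox made up 53.3% to 78.6% of the family's summed RPKM outside control day 3 replicate 2, and 37.9% in that library. The summed RPKM of the 5 members was 145 and 149 in control at day 5 and 64.3 and 64.8 in the day 5 libraries labelled knockdown. At day 0 it was 105 and 106 in control and 80.3 and 78.4 in those labelled knockdown. The sum was thus lower in every labelled knockdown library than in the control libraries of the same day at days 0 and 5, and most of that gap lay in Lox. At day 3 the conditions overlapped, with sums of 72.2 and 30.4 in control and 63.4 and 67 in labelled knockdown. At day 10, with 1 library per condition, the sum was 105 in control and higher, at 114, in labelled knockdown.

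**Figure D1:**
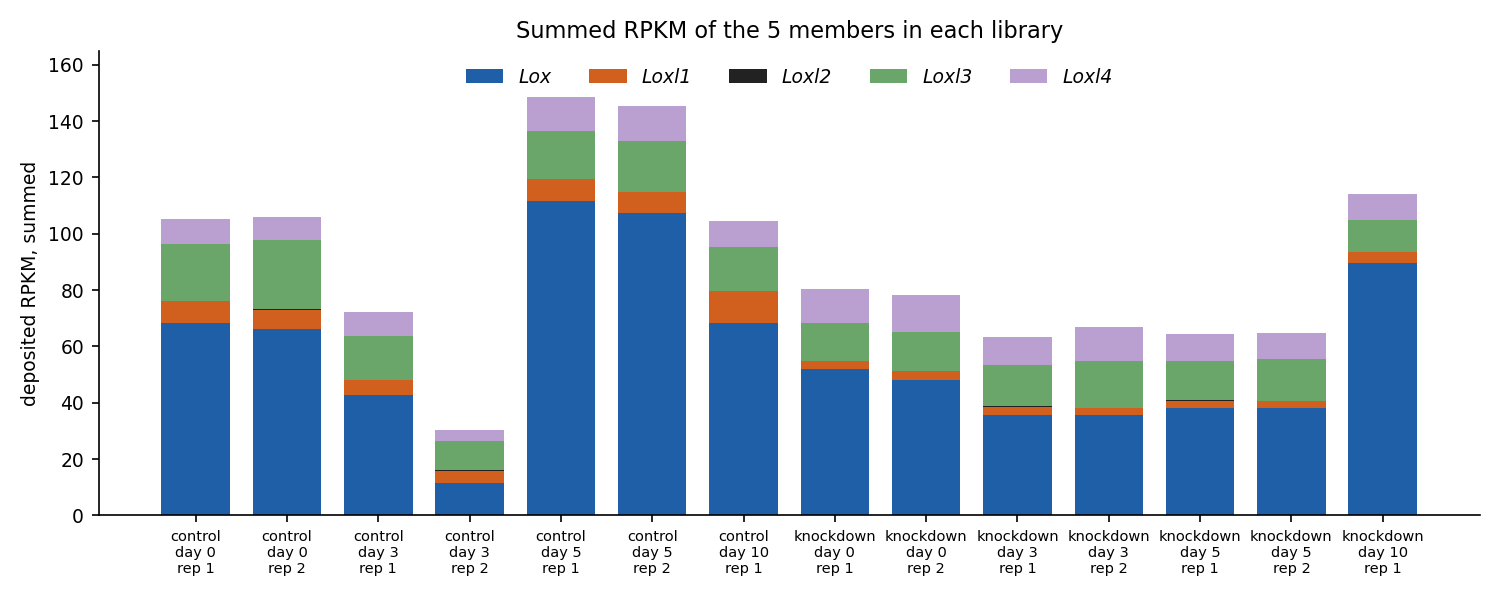
Summed RPKM of the 5 members (vertical axis) in each of the 14 libraries (horizontal axis), with 1 bar per library and 1 colour per member. Lox fills most of each bar except in control day 3 replicate 2, and the control day 5 bars reach 149 and 145 RPKM.

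Loxl1, which acts mainly on elastic fibres and is known for its part in keeping them in adult tissue, was lower in the libraries labelled knockdown on every day. Its gene lies at chr9:58287738-58313186 on the minus strand. In control it was at 27.4 and 24.2 CPM at day 0, 19.0 and 19.5 at day 3, and 27.5 and 26.5 at day 5. Labelled knockdown libraries were at 9.88 and 10.3, 9.75 and 8.13, and 9.42 and 8.72 CPM on the same days. In bulk RNA, fewer cells that express a gene and less RNA per cell cannot be told apart. No library labelled knockdown reached the level of any control library of these days, and the 2 replicates of each group lay close together. This is a description only, since the share of all genes that lie apart in this way was not computed. Averaged over days 0, 3 and 5, Loxl1 fell by 1.34 on the log2 scale (2.54-fold, SE 0.10, 95% interval −1.57 to −1.11, adjusted p = 1.21e-05 by Benjamini-Hochberg over the 13130 genes of the edgeR quasi-likelihood fit). It fell by 1.35 at day 0 (adjusted p = 0.00127), fell by 1.10 at day 3 (adjusted p = 0.00484) and fell by 1.57 at day 5 (adjusted p = 0.000554). The day 3 call was lost without replicate 2 of the day 3 libraries labelled knockdown (adjusted p = 0.0643). The joint test for a condition difference that varies over the 3 days did not pass (adjusted p = 0.681).

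Of the 5 members, Loxl1 and Loxl3 were called in the comparison averaged over days 0, 3 and 5, both as lower, against 26.9% of all genes tested (15.0% higher and 11.9% lower). In the reduced fit, Lox was called as well, all 3 as lower, against 47.0% of all genes (24.9% higher and 22.1% lower). Without the other control day 3 library, 4 members were called against 57.9% of all genes, Lox, Loxl1 and Loxl3 as lower and Loxl4 as higher. At single days the members called were Loxl1 and Loxl3 at day 0 (7.09% of all genes), Loxl1 at day 3 (12.6%), and Loxl1 and Lox at day 5 (7.78%). A condition difference was thus common among all genes, and a count of called members has to be read against these shares.

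Lox, the founding member and the main cross-linker of fibrillar collagen, was at its highest in control at day 5, and lower at that day in the libraries labelled knockdown. Its gene lies at chr18:52516067-52529867 on the minus strand. Control libraries were at 359 and 334 CPM at day 0, 221 and 74.6 at day 3 and 587 and 546 at day 5. Those labelled knockdown were at 263 and 239 CPM at day 0, 179 and 171 at day 3 and 195 and 195 at day 5. The groups did not overlap at days 0 and 5, with control the higher. They overlapped at day 3, where the lower control value belongs to control day 3 replicate 2. How many of all genes lie apart in this way was not computed, so non-overlap of 2 against 2 libraries is only described. At day 5, Lox was lower in the libraries labelled knockdown by 1.54 on the log2 scale (2.91-fold, SE 0.38, 95% interval −2.39 to −0.69, edgeR adjusted p = 0.0369). That call held without either control day 3 library and missed the threshold without any one of the other 10 replicated libraries (adjusted p up to 0.205). At day 0 the difference was −0.47 (SE 0.37, adjusted p = 0.573), and averaged over the 3 days it was −0.59 (SE 0.22, adjusted p = 0.0701).

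The control pair of day 3 sets how precisely Lox can be compared, because all groups share 1 estimate of the spread. In the reduced fit, the average difference of Lox was −0.78 (SE 0.06, edgeR adjusted p = 7.55e-07), and without control day 3 replicate 1 it was −0.26 (SE 0.06, adjusted p = 0.00261). The reduced fit gave −0.46 at day 0 (adjusted p = 0.00288) and −1.55 at day 5 (adjusted p = 4.78e-07). There, 28.5% of all genes were called at day 0, 20.9% at day 3 and 31.4% at day 5. The direction of Lox at day 3 turned with the library that was left out. It was 0.24 with both libraries (adjusted p = 0.683), −0.34 in the reduced fit (adjusted p = 0.052) and 1.23 without control day 3 replicate 1 (adjusted p = 6.93e-06, with 58.8% of all genes called). No direction of Lox at day 3 can be given from these libraries.

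**Figure D2:**
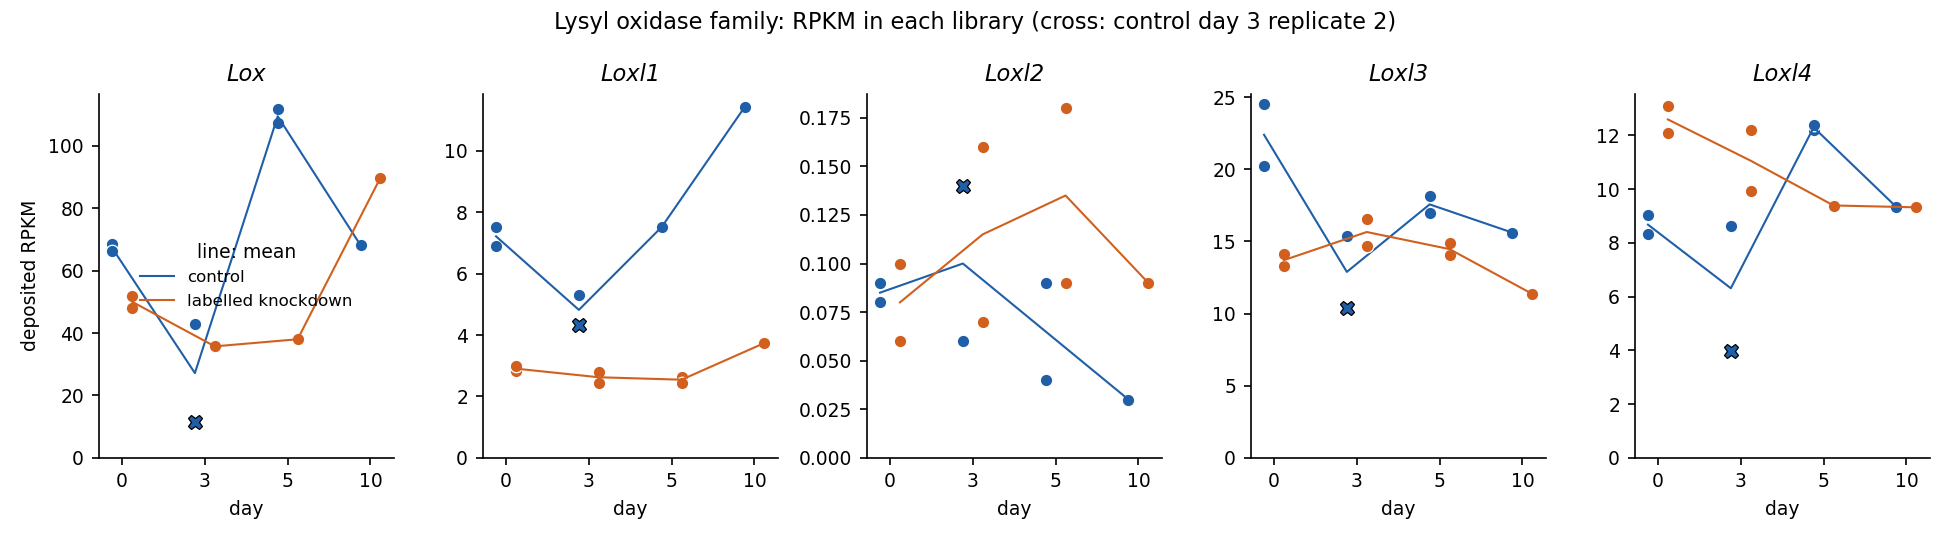
RPKM (vertical axis, from 0, with its own scale for each member) against day (horizontal axis, days evenly spaced). Points are libraries, lines join group means, blue is control, orange is labelled knockdown, and the cross is control day 3 replicate 2. Loxl1 is lower in every labelled knockdown library than in the control libraries of the same day, and Lox in control at day 5 reaches 111.81 and 107.24 RPKM.

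Loxl3, which carries scavenger receptor domains and is needed for palate and spine development in the mouse, differed chiefly at day 0. Its gene lies at chr6:83034173-83052562 on the plus strand. At day 0 it was at 90.4 and 106 CPM in control against 57.2 and 59.6 CPM for labelled knockdown. Day 3 gave 67.7 and 57.4 against 62.8 and 67.8, and day 5 gave 76.1 and 78.7 against 61.5 and 64.9. The groups were apart at days 0 and 5 and overlapped at day 3, a description without a share over all genes. Loxl3 fell by 0.75 on the log2 scale at day 0 (SE 0.17, edgeR adjusted p = 0.0225) and by 0.33 on average (SE 0.10, adjusted p = 0.0292). The average call held in 3 of 12 fits that left out 1 library and the day 0 call in 5 of 12, the adjusted p reaching 0.0954 and 0.2. At day 5 the difference was −0.29 (adjusted p = 0.361), or −0.30 in the reduced fit (adjusted p = 0.0365).

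Exons of Loxl3 share 535 bases with Htra2, a gene of a mitochondrial protease on the opposite strand. The libraries keep strand, but whether the counting used it is not stated, so reads of the shared bases may sit with either gene. Summed over all libraries, Htra2 held 4257 counts and Loxl3 15572. Htra2 was itself lower in the libraries labelled knockdown, by 0.85 on the log2 scale (SE 0.15, edgeR adjusted p = 0.00223), and its part in the Loxl3 values was not tested.

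Loxl4, the other member with scavenger receptor domains that was well expressed, lay above control at day 0 and below it at day 5. Its gene lies at chr19:42593982-42612813 on the minus strand. At day 0 it was at 36.8 and 32.7 CPM in control and at 47.4 and 50.5 CPM with the knockdown label. At day 3 it was at 34.7 and 20.1 against 38.7 and 45.4, and at day 5 at 49.8 and 49.0 against 37.6 and 37.3. The groups overlapped on none of these days, with control lower at days 0 and 3 and higher at day 5. With 2 libraries on each side this is a description only. The share of all genes that lie apart in this way was not computed. With all 14 libraries no difference of Loxl4 passed the test, the log2 differences being 0.50 at day 0 (adjusted p = 0.269), 0.60 at day 3 (adjusted p = 0.11) and −0.40 at day 5 (adjusted p = 0.37). In the reduced fit they were 0.50 (SE 0.11, adjusted p = 0.00506), 0.27 (adjusted p = 0.175) and −0.41 (SE 0.11, adjusted p = 0.0136). Without the other control day 3 library, the day 3 difference was 1.06 (adjusted p = 0.000129). Averaged over the days, the difference was 0.23 with all libraries (adjusted p = 0.226) and 0.12 in the reduced fit (adjusted p = 0.165). It was 0.39 without control day 3 replicate 1 (SE 0.07, adjusted p = 0.000771), a call as higher.

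Loxl2, which oxidises basement membrane type IV collagen and has reported nuclear roles, was near the lower limit of detection. Its gene lies at chr14:69609068-69695834 on the plus strand. It held 3 to 25 counts per library, or 0.154 to 1.05 CPM, and 122 counts over all libraries. The groups overlapped on days 0, 3 and 5. The average difference was 0.35 on the log2 scale with a 95% interval from −0.62 to 1.32 (edgeR adjusted p = 0.587). The interval covers both directions, so that neither is given.

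**Figure D3:**
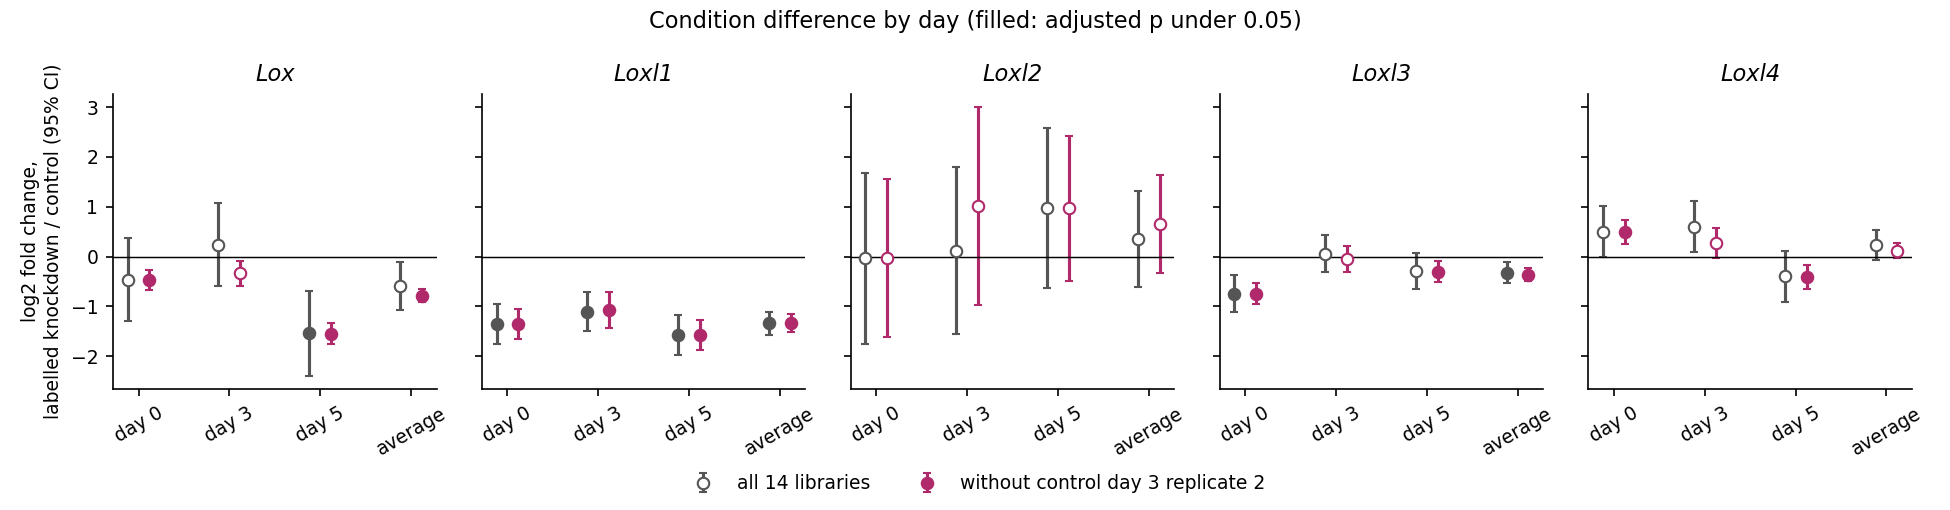
Log2 fold change of libraries labelled knockdown over control (vertical axis) for each member at days 0, 3 and 5 and averaged over them (horizontal axis). Points are edgeR estimates with 95% intervals, grey with all 14 libraries and purple without control day 3 replicate 2, and filled points have an adjusted p under 0.05. Loxl1 is filled throughout, and the intervals of Lox and Loxl4 narrow without that library.

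The changes with time differed between members and conditions. In control, Loxl3 fell by 0.64 on the log2 scale from day 0 to day 3 (SE 0.17, edgeR adjusted p = 0.0355), the 1 member called there against 10.7% of all genes. Its call was lost without any one of the 10 other replicated libraries and held without either control day 3 library. Lox differed by −1.22 over the same days with all libraries (adjusted p = 0.0649) and by −0.63 in the reduced fit (adjusted p = 0.00223), where 25.8% of all genes were called. Without control day 3 replicate 1 it was −2.22 (adjusted p = 2.69e-07, with 54.7% of all genes called), so that the size depends on which library of the pair is left out. From day 0 to day 5 in control, no member was called with all libraries, against 8.13% of all genes, with Lox at 0.71 (adjusted p = 0.316). The reduced fit differed: Lox rose by 0.72 (SE 0.09, adjusted p = 0.000116), Loxl4 rose by 0.52 (adjusted p = 0.00346) and Loxl3 fell by 0.33 (adjusted p = 0.0247), against 31.4% of all genes.

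In the libraries labelled knockdown, no member was called with all libraries from day 0 to day 3 or from day 0 to day 5, against 0.906% and 2.00% of all genes. Members at an unadjusted p under 0.05 were also 0 in both comparisons, the smallest being 0.123 for Loxl4 at day 5. By the reduced fit, Lox fell by 0.51 from day 0 to day 3 (SE 0.09, edgeR adjusted p = 0.00393, with 14.7% of all genes called). From day 0 to day 5 it fell by 0.36 (adjusted p = 0.0213) and Loxl4 fell by 0.38 (adjusted p = 0.0329), with 15.5% of all genes called. Loxl1 was called in none of these time comparisons in either setting.

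Whether the condition difference itself varied between days 0, 3 and 5 was tested with 2 contrasts jointly. With all libraries no member passed, against 0.998% of all genes, the adjusted p being 0.423 for Lox, 0.388 for Loxl3 and 0.414 for Loxl4 in edgeR's quasi-likelihood test. Their unadjusted p were 0.023, 0.0193 and 0.0221. In the reduced fit these 3 members passed, with adjusted p of 0.000275, 0.0346 and 0.00717, against 8.58% of all genes. The same 3 passed without control day 3 replicate 1, where 49.6% of all genes did. By the reduced fit, the condition difference at day 5 minus that at day 0 was −1.08 for Lox (95% interval −1.37 to −0.80) and −0.91 for Loxl4 (−1.24 to −0.57). For Loxl3 the condition difference at day 3 minus that at day 0 was 0.69 (0.34 to 1.03).

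Day 10 had 1 library per condition, so that its values have no replicate check and no test. Loxl1 was at 41.9 CPM in control, its highest level in the series, and at 13.8 CPM in the library labelled knockdown, 3.03-fold lower. Of all 13130 genes, 8.86% differed by more than 2-fold between these libraries, in either direction. Lox was at 361 CPM for control and 478 CPM for labelled knockdown. Relative to the day 5 mean, the day 10 level of Lox was 0.636 times as high in control and 2.45 times as high in the library labelled knockdown, so that the order of the conditions was the opposite of that at day 5. Loxl1 at day 10 was 1.55 times its day 5 mean in control and 1.52 times in the library labelled knockdown. Loxl3 was at 70.3 and 51.5 CPM, Loxl4 at 38.4 and 38.6 CPM, and Loxl2 held 3 counts in control and 9 in the library labelled knockdown.

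Within the family's summed RPKM, the share of Loxl1 was 5.07% to 10.9% in control libraries other than control day 3 replicate 2, where it was 14.3%. It was 3.27% to 4.43% in the libraries labelled knockdown, below every control library. The share of Lox was 75.2% and 73.8% in control at day 5 and 59.1% and 58.7% in the libraries labelled knockdown, and at day 10 it was 65.2% and 78.6%. Loxl4 held 8.56% and 7.85% in control at day 0 against 15.0% and 16.7% in the libraries labelled knockdown.

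For each member, the genes with the most similar pattern were taken by Pearson's r of log2 CPM over the 14 libraries. The search covered 9574 tested genes with a mean of at least 5 CPM, and genes with clone, Gm or Rik names were left out. Lox was most like Kdm3a (r = 0.913), Alkbh5 (0.899) and Sertad4 (0.889). Loxl1 was most like Mtus2 (0.964), Ifi204 (0.963) and Tgfb2 (0.948). Loxl3 was most like Palm2 (0.946), Neo1 (0.941) and Ptk7 (0.939), and Loxl4 most like Dock5 (0.939), Vps4b (0.932) and Rab6a (0.910). For Loxl2, whose counts are few, the values were lower, with S100a11 at 0.855, Kctd1 at 0.847 and Cisd1 at 0.818. These values are descriptions: the libraries share conditions and days, and 1 library can carry much of r. Without control day 3 replicate 2, the 3 genes named for Lox had r of 0.861, 0.821 and 0.792 and ranked 11, 25 and 44 among all genes searched, so that their place at the top rests on that library. For Loxl1, Mtus2, Ifi204 and Tgfb2 then ranked 8, 4 and 21. For Loxl4, r fell to 0.831 for Dock5, 0.829 for Vps4b and 0.732 for Rab6a, yet these ranked 2, 3 and 21. The r of Mtus2 with Loxl1 remained at 0.964, at rank 8.

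The substrates, activators and regulators of the enzymes were described by 6 lists of genes, in the comparison averaged over days 0, 3 and 5. These lists are described by counts and medians, beside a median of −0.00 on the log2 scale and the shares called above for all 13130 genes. Among 9 fibrillar and basement membrane collagens, 3 rose, 1 fell and 5 did not pass, with a median of −0.12. Col4a1 and Col4a2, the common chains of basement membrane collagen and substrates of Loxl2, rose by 1.24 (SE 0.18, edgeR adjusted p = 0.000896) and 1.04 (SE 0.15, adjusted p = 0.000944). Col2a1, the cartilage collagen, rose by 0.78 (adjusted p = 0.000276). Col5a1, a chain that starts fibrils of type I collagen, fell by 1.08 (SE 0.10, adjusted p = 6.29e-05). The chains of type I collagen itself, the main substrate in bone, did not pass: Col1a1 was at −0.29 (adjusted p = 0.103), or −0.23 in the reduced fit, where it did (adjusted p = 0.0222), and Col1a2 at 0.01 (adjusted p = 0.981). In the reduced fit, 5 of the 9 collagens fell and 3 rose, with a median of −0.23.

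Lysyl hydroxylases act before lysyl oxidases, since they modify collagen lysines inside the cell. Of 8 such enzymes and partners, 4 fell, none rose and 4 did not pass, with a median of −0.42. Ppib, a prolyl isomerase of the collagen-modifying complex, fell by 0.98 (SE 0.15, edgeR adjusted p = 0.00133). Plod3 fell by 0.68 (adjusted p = 0.00133) and Plod2, which hydroxylates the telopeptides that lysyl oxidases act on, fell by 0.58 (adjusted p = 0.0081). P3h3 fell by 0.55 (adjusted p = 0.0135). Of the 8, 6 fell in the reduced fit.

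Activators and partners of the propeptide and of the active enzyme moved in both directions. Of 8 genes, 6 were tested; Tll1 and Tll2 held at most 2 and 3 counts in any library. Of the 6, 2 rose and 3 fell, with a median of −0.60. Pcolce2, an enhancer of procollagen C-proteinase, rose by 3.68 (SE 0.11, edgeR adjusted p = 8.76e-08), from 3.55 to 6.07 mean CPM in the control groups to 54.2 to 81.0 in those labelled knockdown. Its relative Pcolce fell by 0.93 (adjusted p = 0.00404), and its difference was −0.70 in the reduced fit. Fmod, a small proteoglycan that binds collagen and lysyl oxidase, fell by 2.07 (SE 0.10, adjusted p = 9.21e-07). Postn, a matricellular protein that brings Bmp1 to lysyl oxidase, fell by 0.85 (SE 0.21, adjusted p = 0.0148), with control means of 2133, 2042 and 1960 CPM against 483, 1533 and 1983 at days 0, 3 and 5. The control libraries of day 3 lay far apart for Postn (SD 1320 CPM), and its difference was −1.03 in the reduced fit. Bmp1, the protease that cleaves the propeptide of Lox, was at −0.35 (adjusted p = 0.119). With the replicate number as a block, all 6 tested genes of this list passed, Bmp1 among the 4 that were lower. The share of all genes called in that fit is not given, so this count has no background beside it. Of the copper supply genes, 5 of 6 were tested and 1 rose, Slc31a2, a copper transporter, by 0.45 (SE 0.12, adjusted p = 0.0175), with a median of −0.02. Atp7a, which loads copper onto lysyl oxidases in the secretory pathway, was at 0.51 (SE 0.28, adjusted p = 0.216). Of the 5, 2 rose in the reduced fit and the median was 0.29, and it was 0.09 with library totals as the scale.

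Elastic fibre genes are of interest because elastin is the other substrate of the family. Elastin itself (Eln) held at most 6 counts in any library and was not tested, as were Fbln1, Efemp1 and Mfap2. Of the 10 elastic fibre genes tested, 2 rose and 4 fell, with a median of −0.36. Ltbp2, a fibrillin-binding glycoprotein, fell by 1.98 (SE 0.12, edgeR adjusted p = 3.74e-06), and the fibrillin Fbn2 fell by 0.76 (SE 0.11, adjusted p = 0.000896). Fbln2 fell by 0.41 (adjusted p = 0.0299) and Ltbp4 rose by 0.47 (adjusted p = 0.0281). Fbln5, which tethers Loxl1 to elastin, was at −0.25 (adjusted p = 0.0642), and at −0.28 in the reduced fit (adjusted p = 0.00149). The median of the list was −0.17 in that fit, and with library totals as the scale 2 of the 10 fell in place of 4.

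Of 10 regulators and nuclear partners of the family that were tested, 5 fell and 1 rose, with a median of −0.26. Tgfb2 and Tgfb3, ligands of a pathway that induces Lox in many stromal cells, fell by 1.41 (SE 0.11, edgeR adjusted p = 1.01e-05) and 0.78 (SE 0.09, adjusted p = 0.000199). Snai2, a transcriptional repressor, fell by 0.84 (adjusted p = 0.00693), and Runx2, the master factor of osteoblasts, fell by 0.61 (SE 0.10, adjusted p = 0.00208). Hif1a, the oxygen-regulated factor under which Lox is induced, was at 0.34 (SE 0.29, adjusted p = 0.409). To complete these counts, named after their values were seen: Fn1 rose by 0.82, Mfap5 by 1.98 at a mean of 1.28 CPM, and Mkl1 by 0.37, while Emilin1 fell by 0.34 and Tgfb1 by 0.55.

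**Figure D4:**
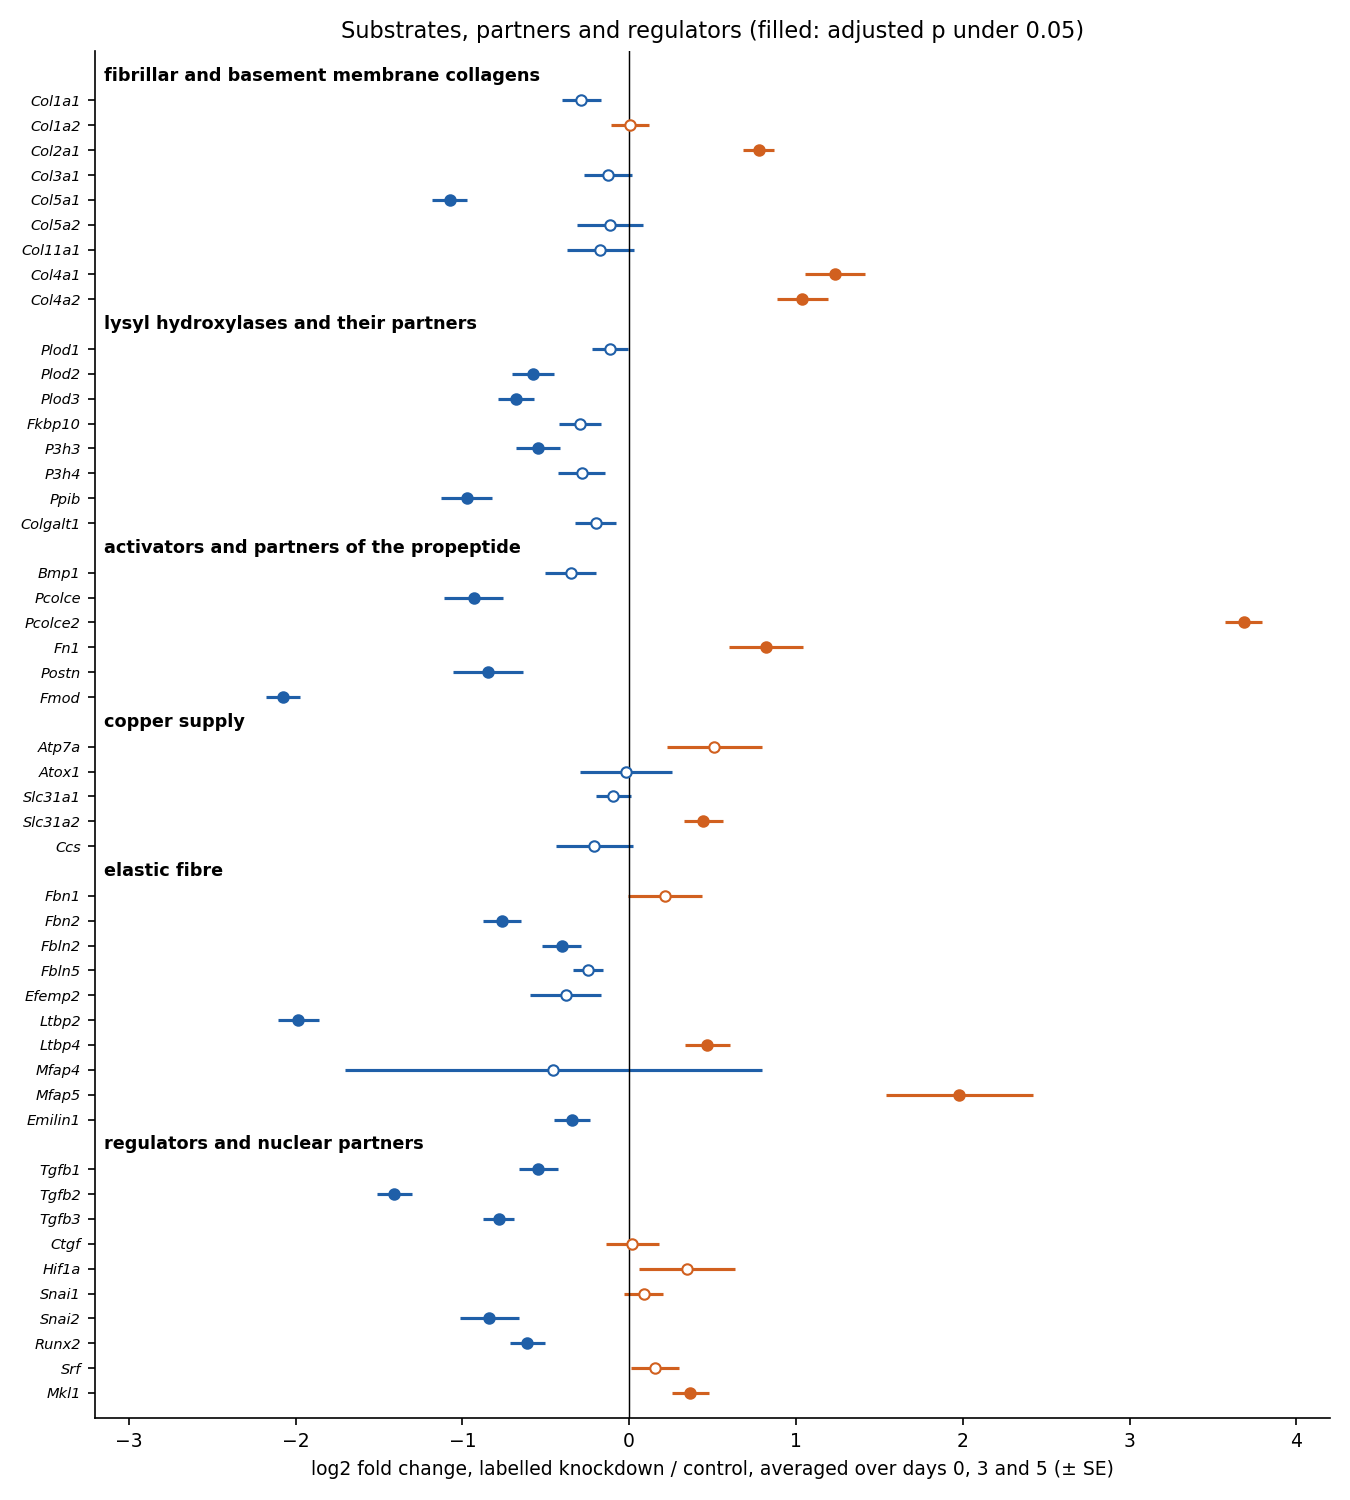
Log2 fold change of libraries labelled knockdown over control, averaged over days 0, 3 and 5 with all 14 libraries (horizontal axis), for each tested gene of the 6 lists (vertical axis). Points are edgeR estimates with SE bars, blue below 0 and orange above, filled where the adjusted p is under 0.05. Pcolce2 lies farthest to the right at 3.68 and Fmod farthest to the left at −2.07.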

How the data were processed

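The submitters' processing notes name bcl2fastq, TopHat2, edgeR and the build GRCm38; for versions, the counting tool and its strand setting, nothing is given in the sources used here. Per the labels' protocols, libraries were strand-specific and made from polyadenylated RNA. The authors deposited raw read counts and RPKM values per gene. In 5115 genes with at least 100 counts and 5 RPKM in every library, the deposited RPKM equalled the counts times 1 factor per gene and 1 per library within 0.111%. Of 24346 gene identifiers, 24181 matched the GENCODE release M21 annotation, from which positions and coding sequences were read.

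A gene was tested if 2 or more libraries held at least 10 counts (13130 genes; 11216 were left out). The 14 libraries were fitted with 1 mean for each of 8 groups (edgeR 4.0.16 in R 4.3.3, TMM scaling, robust quasi-likelihood F test on 6 residual degrees of freedom), with Benjamini-Hochberg adjustment over all genes tested and a threshold of 0.05. CPM are on the TMM scale, except those of the cell type markers and of the 1 CPM filter, which use library totals alone. Members of a family were aligned with biopython 1.88. Alternatives were other scalings, filters and tools (DESeq2 1.42.0; limma 3.58.1 on log2(RPKM + 1) and log2(RPKM + 0.1)), the replicate number as a block, and leaving out each replicated library.

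Chi-square per degree of freedom between replicates was 12.8 to 38.66, and 176.6 for control day 3, so no pair was 1 library deposited again. Deviations of same-numbered libraries from their group means correlated at 0.234, 0.141 and 0.228 at days 0, 3 and 5, each over 0.1. The replicate numbers, which come from the labels' titles, may thus pair the libraries. Replicate 1 was the deeper library in every replicated pair, and the part of depth in these correlations was not tested. The main fit does not use the pairing, and the fit with the replicate number as a block is given as an alternative. The members and lists were chosen with earlier results of these data known. The named genes were the 5 members, the 3 genes most like each, up to 4 called genes of each list with the largest change and a mean of at least 5 CPM, Macf1 and the osteoblast markers. Other list genes named as not passing have values only.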

Additional observations from a re-analysis of the deposited data

Results flagged for a closer look

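The condition difference of 3 members differed between days 0, 3 and 5 by edgeR's joint test of the 2 condition-by-day contrasts when control day 3 replicate 2 was left out. The adjusted p was 0.000275 for Lox, 0.0346 for Loxl3 and 0.00717 for Loxl4. Lox was lower in the libraries labelled knockdown by 0.46 on the log2 scale at day 0 and by 1.55 at day 5. Loxl4 was higher by 0.50 at day 0 and lower by 0.41 at day 5. Loxl3 was lower by 0.74 at day 0 and at −0.055 at day 3. With all 14 libraries none of the 3 passed (adjusted p = 0.423, 0.388 and 0.414), against 0.998% of all genes. A larger share of all genes passed without either control day 3 library, as given with the joint test above. The 3 members have to be read against those shares, and control day 3 then has 1 library.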

How the results depend on the processing

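The fall of Loxl1 averaged over the days passed in all 23 alternatives tried, with log2 differences from −1.46 to −1.01. Leaving out 1 library gave 1 to 4 called members on average, 1 to 4 at day 0, 0 to 3 at day 3, 1 to 4 at day 5, 0 to 3 for control day 3 against day 0, 0 to 3 for control day 5 against day 0, 0 to 1 for knockdown day 3 against day 0, 0 to 2 for knockdown day 5 against day 0, and 0 to 3 in the joint test; the highest counts came without a control day 3 library. With library totals only, and with limma on either RPKM scale, 1 member was called on average, at day 0 and at day 5. Library totals moved the median of all genes at day 3 from 0.01 to 0.18, and gave 0 called members for control day 3 against day 0, where DESeq2 gave 2. Without a filter, 1 was called at day 0 and 1 in the joint test. With all day 3 libraries left out, an alternative added after seeing the data, 4 were called at day 0, 4 at day 5, 3 for control day 5 against day 0 and 2 for knockdown day 5 against day 0. Beyond the shares stated earlier, the share of all genes called under the alternatives of this paragraph is not given. Leaving out a control day 3 library raised those shares, so these counts are not read as a result about the family. With the replicate number as a block, no call of a member changed, and Loxl1 was at −1.34 on average (edgeR adjusted p = 3.44e-05). Counts of genes that fell changed in 3 lists. They were 2 in place of 1 for collagens, 4 in place of 3 for activators and partners, and 5 in place of 4 for elastic fibre genes.

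Directions that turned, with 1 library left out, ranged from −0.34 to 1.23 for Lox at day 3, −0.055 to 0.184 for Loxl3 at day 3, −0.788 to 0.012 for Loxl4 in control from day 0 to day 3, and −0.018 to 0.159 for Loxl1 in control from day 0 to day 5. For Loxl2 they ranged from −0.41 to 0.22 at day 0 (0.006 with library totals), −0.75 to 1.01 at day 3, −0.51 to 1.14 for control day 3 against day 0, −0.98 to 0.26 for control day 5 against day 0, and −0.345 to 1.0 for knockdown day 3 against day 0. The cause was not tested. Loxl2 had no value under the filter of 1 CPM in 2 libraries, which it did not reach, and its counts limit every statement on it.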
